A study of Homo sapiens with 56 samples.

Results

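The genes described here code for the proteins of the cytosolic ribosome, followed in 4 human lines of a skin T-cell lymphoma (cutaneous T-cell lymphoma, CTCL) treated with an inhibitor of the microRNA miR-155. They are the genes whose symbol names a protein of the large subunit (RPL) or small subunit (RPS) and that have a probe set assigned to that symbol alone. The rule leaves out kinases named RPS6K, RPS27L, pseudogenes and read-through symbols, and it used no measured value beyond taking, for each gene, the probe set with the highest mean. It gave 60 of the 19775 genes with such a probe set, 39 RPL and 21 RPS. Of these, 1 is Y-linked and is counted only, so values are given for 59. Another 15 ribosomal protein symbols, among them RPL4, RPL5 and RPS2, occurred only on probe sets that carry several symbols and were not analysed here.

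HuT102, MJ, MyLa and HuT78 grow in suspension, and HuT102 and MJ are infected with HTLV-1. Wells received cobomarsen (MRG-106), an oligonucleotide that binds miR-155, or stayed untreated. The harvest was at day 4 and day 8, for HuT78 at day 8 alone, with 4 arrays in each of 14 groups, 56 in all. At day 4 all wells were split by the factor that returned the untreated wells to their seeding density, and the splits continued in medium with the inhibitor. The concentration was not stated in the labels, and no well with another oligonucleotide was used here, so the inhibition of miR-155 and the presence of an oligonucleotide cannot be told apart. Each line is 1 line and not a sample of patients, and whether the 4 arrays of a group came from separate cultures is not stated. The p-values therefore measure the spread between these samples, which may be technical. RNA was taken from whole wells, so fewer cells of a kind and less RNA per cell cannot be told apart.

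Values are the authors' MAS5 signal, a brightness on a linear scale. The mean after trimming 2% of the probe sets at each end was 500.1 on every array. The median signal ran from 56.4 to 91.7 over arrays. Of 7 measured T-cell markers, 7 lay above the low-signal filter in HuT102 and MJ and 6 in MyLa and HuT78, where CD4 (MyLa) and CD2 (HuT78) lay below it. Of 3 measured B-cell markers, 2 lay above it in each line, CD79A (313 to 412) among them, and PAX5 stood at 1148 in HuT102. The summed signal of 3 measured monocyte markers was 89.7 to 215 over lines, and that of 4 fibroblast markers 97.2 to 269. The 4 epithelial markers, EPCAM among them, summed to 10100 in HuT78 against 241 to 967 in the other lines. In all that follows a change is the difference of mean log2(signal + 16), cobomarsen minus untreated, with its standard error (SE) after ±. Called means a limma adjusted p under 0.05, with the adjustment over every gene tested in that comparison, and a gene was tested when its mean reached the median of all values (signal 74.0).

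Ribosomal proteins fold around ribosomal RNA to form the small subunit, which reads the messenger RNA, and the large subunit, which joins amino acids. Their genes are among the most strongly transcribed of a dividing cell, and their products are needed in equal numbers. Most of their messages begin with a cytosine followed by a run of pyrimidines, the terminal oligopyrimidine (TOP) tract, through which the kinase complex mTORC1 and the protein LARP1 control their translation. Some have a copy elsewhere in the genome whose product can take the place of the standard protein: RPL22L1 for RPL22, RPL39L for RPL39, RPL36AL for RPL36A, RPL26L1 for RPL26, RPL10L for RPL10 and RPL3L for RPL3. RPL7L1 resembles RPL7 and acts in the assembly of the large subunit.

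The start of the transcript is shown because the TOP tract lies there, for some standard members and for copies with values below. Of the 59 members, 51 had an entry in RefSeq's promoter table (GRCh38.p14), which holds 250 bases before and 50 after each annotated start. A cytosine at the start followed by at least 4 pyrimidines on the transcribed strand was present in 35 of 51 members (68.6%), against 1404 of all 27305 genes of the table (5.14%). Without the copies it was 34 of 46 (73.9%). The windows below, read 5′ to 3′, hold 15 bases on each side, so that the start is the sixteenth letter, and capitals mark the pyrimidine run from the start.
RPS19: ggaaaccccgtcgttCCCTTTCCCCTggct
RPS23: tcctgcggtgcttctCTCTTTCgctcaggc
RPS12: gcgtgcggatgaggcCTCTTTCCCTgccgc
RPL39: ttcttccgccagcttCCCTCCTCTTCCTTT
RPL22: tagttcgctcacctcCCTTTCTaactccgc
RPL22L1: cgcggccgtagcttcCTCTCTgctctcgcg
RPL7L1: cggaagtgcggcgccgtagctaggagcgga
RPL36AL: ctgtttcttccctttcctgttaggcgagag
They lie at chr19:41860240-41860269 (RPS19, plus strand), chr5:82278340-82278369 (RPS23, minus), chr6:132814554-132814583 (RPS12, plus) and chrX:119791616-119791645 (RPL39, minus). The others lie at chr1:6199581-6199610 (RPL22, minus), chr3:170870181-170870210 (RPL22L1, minus), chr6:42879601-42879630 (RPL7L1, plus) and chr14:49620612-49620641 (RPL36AL, minus). RPS19 has another annotated start, not shown, without such a run. Of 5 copies with an entry, RPL22L1 met this definition. RPL7L1 did not, and in RPL36AL the pyrimidine stretch begins before the annotated start and ends soon after it. Of other motifs searched on both strands over the same 300 bases, with overlaps kept, CGGAAGT, the core bound by ETS factors, was present in 19 of 51 members (37.3%) and in 8.18% of all genes. TATAAA was present in 9.80% of members and 14.0% of all genes, and CACGTG, the E box bound by MYC, in 7.84% and 8.77%. These matches describe letters and show no binding.

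The members filled the top of the signal range. Between them, 49 members that are not copies had a mean signal above 10000 (29 of the large and 20 of the small subunit), a division made after the levels were seen. All 49 lay among the brightest 2% of probe sets on every array, and 46 members were among the 100 brightest genes by mean signal. They therefore lie outside the trimmed mean to which the arrays were scaled. RPS19, a small-subunit protein and the gene most often mutated in Diamond-Blackfan anaemia, was the highest member on 50 of 56 arrays, with a mean signal of 51482 and a range of 40444 to 66138. RPS23, at the decoding centre, averaged 48296, and RPS16 averaged 47305. The lowest of the 49, RPL36, averaged 22443. Signals of different probe sets are not comparable as amounts of RNA, so this order is one of brightness.

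The other 10 members were dimmer. RPL27A (mean 1086), RPLP2 of the stalk (216) and RPL36A (118) were each read here by a probe set far below the main group, and other probe sets of these genes carry several symbols and were not used. Among the copies RPL22L1 averaged 12425, RPL36AL 12081, RPL7L1 8026, RPL26L1 4241, RPL39L 2140, the testis gene RPL10L 215 and the muscle gene RPL3L 15.3, the last near background. For 13 members the probe set is of a kind that can also bind related transcripts (ID ending in _x_at), RPL22 and RPL7L1 included, and pseudogenes of this family are many. Signal from near-identical copies was not separated.

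**Figure D1:**
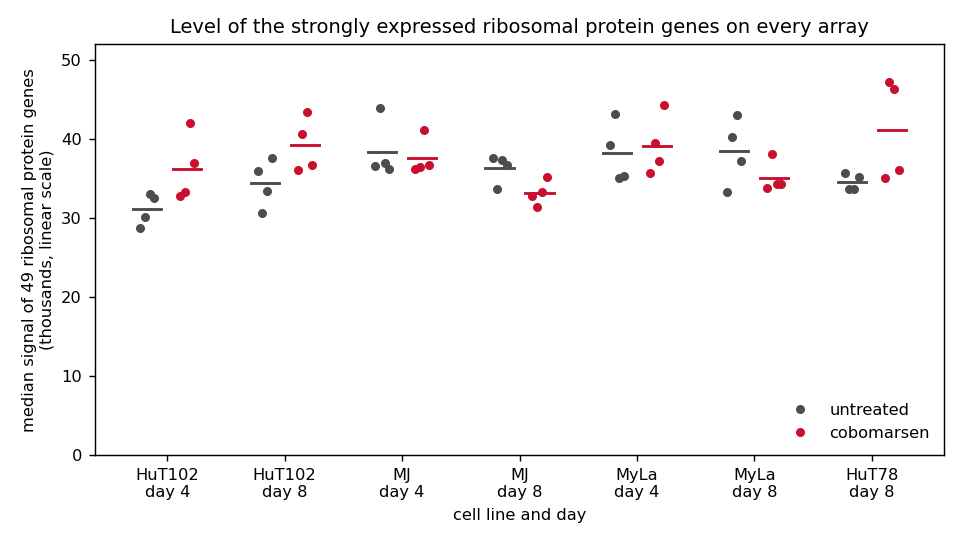
Median signal of the 49 strongly expressed ribosomal protein genes (linear scale) on each of 56 arrays, by line and day; points are arrays, bars the group means of 4 arrays. The lowest array, untreated HuT102 at day 4, stood at 28748 and the highest, HuT78 with cobomarsen, at 47204.

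The 49 strongly expressed members moved together from array to array. On untreated HuT102 arrays at day 4 their median signal was 28748, 30113, 33023 and 32486, and with cobomarsen it was 32754, 33260, 41986 and 36951. At day 8 it was 35991, 30609, 33469 and 37527 without and 36007, 40668, 43400 and 36735 with cobomarsen. In HuT102 the treated groups reached higher, and the groups overlapped at both days. In MJ at day 8 the order was the opposite, with 37605, 33698, 37319 and 36671 untreated and 32736, 31439, 33262 and 35130 treated. In MyLa at day 8 it was 33306, 40210, 43014 and 37152 against 33753, 38079, 34257 and 34351. The MyLa untreated arrays spanned the whole range of the treated ones. In HuT78 the untreated arrays lay close together, at 35678, 33648, 33604 and 35152, and the treated arrays split, at 35047, 47204, 46334 and 36038. Treated arrays 2 and 3 stood above all others of that line, while treated arrays 1 and 4 lay beside the untreated ones. At day 4 MJ read 36558, 43846, 36891 and 36173 untreated and 36224, 36397, 41087 and 36757 treated, and MyLa 39184, 43097, 35105 and 35370 untreated and 35669, 39470, 37165 and 44248 treated. The groups overlapped in both.

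The shared movement was most of what varied between arrays of a group. Subtracting each array's median over these genes removed 84.1% of their within-group sum of squares, and the typical within-group SD of a gene fell from 0.129 to 0.043 in log2. A change common to all of them is thus measured on 4 arrays against 4 and not on 49 independent genes. The upper quartile of all probe sets on the HuT78 arrays was 443, 442, 441 and 422 untreated and 431, 380, 385 and 382 treated, and the part of this in the member values was not tested.

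**Figure D2:**
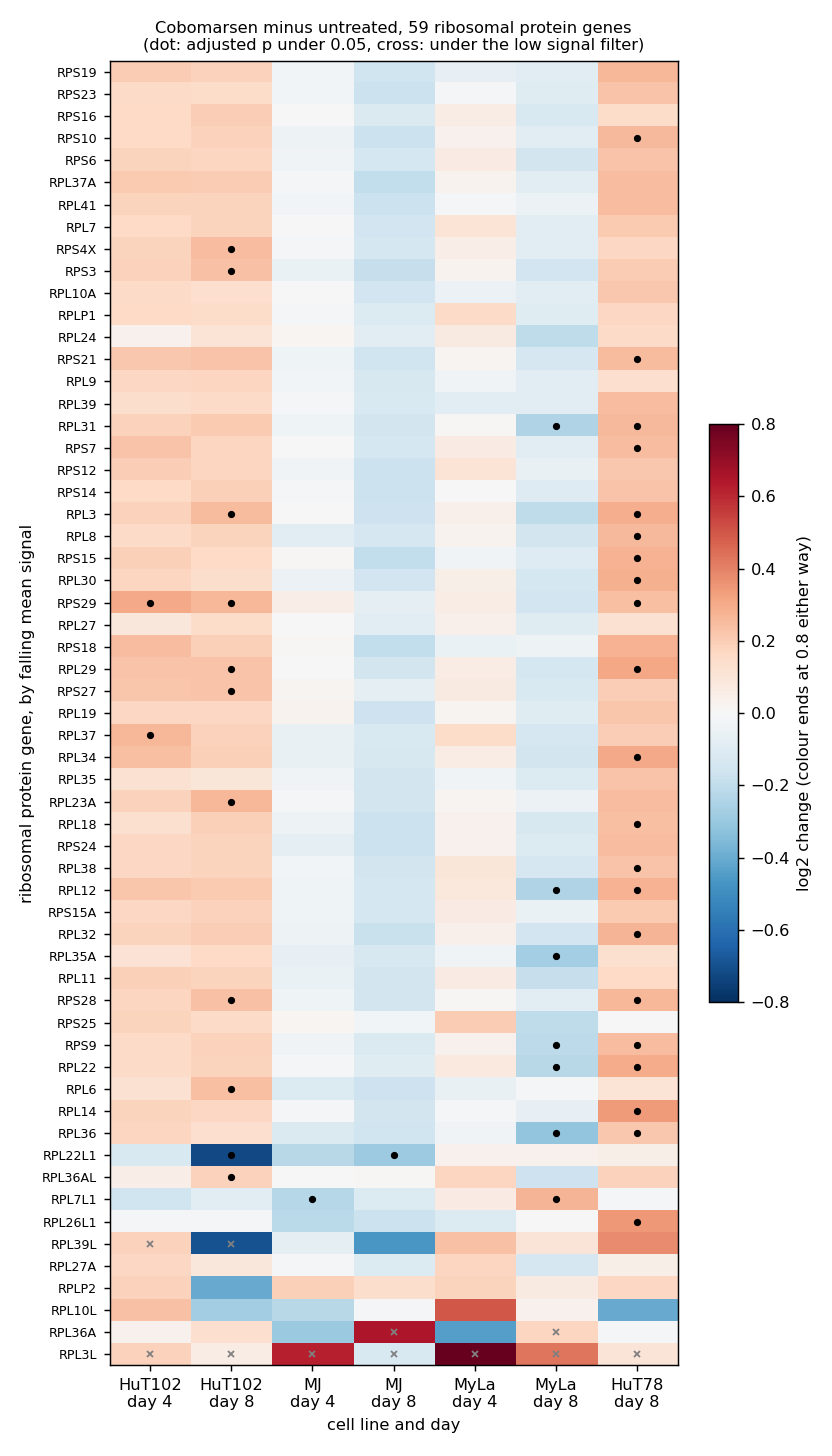
Log2 change with cobomarsen of the 59 ribosomal protein genes (rows, by falling mean signal) in 7 comparisons of line and day (columns); dots mark calls and crosses genes under the low-signal filter. The upper rows form vertical bands of one colour, up in HuT102 and HuT78 and down in MJ and MyLa at day 8, while RPL22L1, RPL7L1 and RPL39L depart from the bands.

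In HuT102 with cobomarsen most members leaned upward by a small amount. At day 4 the median change was 0.17 over 57 members tested, against -0.027 over all genes, and 2 members were called higher and 0 lower. The background was 10.1% of 11589 genes called higher and 13.1% called lower, and the 2 rises were 3.51% of the members tested. The 2 called were RPS29, a small zinc-binding protein of the small subunit (0.30 ± 0.09, limma adjusted p = 0.0078), and RPL37, of the large subunit (0.27 ± 0.08, limma adjusted p = 0.0117). RPS29 signals were 27992, 30716, 32835 and 29813 untreated and 34493, 34895, 43903 and 37060 treated, with no overlap. Treated array 3 was the highest. With the mean of all probe sets of a gene neither was called (RPS29 0.24, RPL37 0.0068). Without treated array 3 0 members were called, without treated array 1 there were 7, without treated array 2 there were 4, and without untreated array 1 there was 1. At an unadjusted p under 0.05 limma gave 20 members higher and 1 lower.

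At day 8 in HuT102 the median change was 0.18 (all genes -0.0017), with 10 of 57 members called higher and 1 lower, against a background of 19.1% and 21.3%. The rises were RPL3, RPL6, RPL23A, RPL29 and the copy RPL36AL in the large subunit, and RPS3, RPS4X, RPS27, RPS28 and RPS29 in the small subunit. RPS29 went from 34717 ± 2455 to 41791 ± 3524 (SD, n = 4) and changed by 0.27 ± 0.09 (limma adjusted p = 0.0119). RPL3, which lies near the peptidyl transferase centre, changed by 0.25 ± 0.09 (limma adjusted p = 0.0213), and RPL23A, at the exit of the peptide tunnel, by 0.26 ± 0.10 (limma adjusted p = 0.035). All 49 strongly expressed members had a positive change, from 0.10 to 0.27, with a median of 0.18 in the large and 0.19 in the small subunit. The count of rises was 1 without untreated array 2 or without treated array 3, 2 without untreated array 3, 3 without treated array 2, 17 without treated array 1 and 21 without untreated array 4.

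The member that fell in HuT102 was RPL22L1, the copy of RPL22. At day 8 its signals were 4441, 4235, 4907 and 4913 untreated and 2735, 2619, 3371 and 2510 treated. Every treated array lay below every untreated one. The change was -0.72 ± 0.095 (limma adjusted p = 9.57e-09), while RPL22 itself read 25930 ± 3291 and 29315 ± 3185 (0.18 ± 0.09, limma adjusted p = 0.107). The ratio of RPL22L1 to RPL22 signal went from a mean of 0.180 to 0.0959, and the arrays of the groups did not overlap in it (0.161 to 0.196 and 0.0856 to 0.103). At day 4 RPL22L1 read 4733 ± 375 and 4357 ± 362 (-0.12 ± 0.095, limma adjusted p = 0.411). The difference of the effect between the days was itself called, at -0.60 ± 0.13 (limma adjusted p = 0.0017). This was the only member called among 57 in that test, where 7.18% of 11590 genes were called.

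In MJ 1 of 58 members was called at day 4 and 1 of 57 at day 8, both copies and both lower. The backgrounds were 13.2% called higher and 14.3% lower at day 4 and 15.3% and 18.7% at day 8. At day 8 RPL22L1 read 18983, 17613, 19190 and 19336 untreated and 15055, 14466, 15136 and 16901 treated. The groups did not overlap, and the change was -0.29 ± 0.095 (limma adjusted p = 0.0141). At day 4 it read 18476 ± 1066 and 15810 ± 939, also without overlap, and was not called (-0.22 ± 0.095, limma adjusted p = 0.0716). With only the MJ arrays in the fit its limma adjusted p was 0.00503 at day 4 and 0.00049 at day 8. RPL7L1 fell at day 4 from 7619 ± 405 to 6490 ± 312 (-0.23 ± 0.065, limma adjusted p = 0.00486). After quantile normalization, described below, this change was -0.18 (limma adjusted p = 0.0601). RPL7L1 was 7297 ± 116 and 6755 ± 88 at day 8 (limma adjusted p = 0.195).

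The strongly expressed members of MJ had a median change of -0.023 at day 4 and of -0.15 at day 8, when all 49 were negative (-0.20 to -0.023). Called among them were 0 at either day by limma. At an unadjusted p under 0.05 there were 3 members lower at day 4 and 6 at day 8, the copies included, and 0 higher. With only the MJ arrays in the fit 11 members were called lower at day 8. Leaving out untreated array 3 gave 2 calls at day 4, and leaving out treated array 2 or 4 gave 2 at day 8. The effect did not differ between the days for any member by limma (0 of 57 called and 0 at an unadjusted p under 0.05, background 1.38%), although the median of this difference was -0.11.

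RPL39L, the copy of RPL39 known from testis, was at 1653 ± 123 untreated and 1193 ± 48 with cobomarsen in MJ at day 8. Its signals were 1788, 1493, 1643 and 1688 against 1144, 1189, 1180 and 1259, so that the groups did not overlap. The change was -0.46 ± 0.20 and was not called when the spread was shared by all lines (limma adjusted p = 0.0682). HuT102 arrays, where this gene lay near background, are part of that shared spread. With only the MJ arrays in the fit the SE was 0.063 and the limma adjusted p 6.26e-06. RPL39 read 38646 ± 2253 and 35551 ± 1190 in the same wells (-0.12 ± 0.10, limma adjusted p = 0.384).

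**Figure D3:**
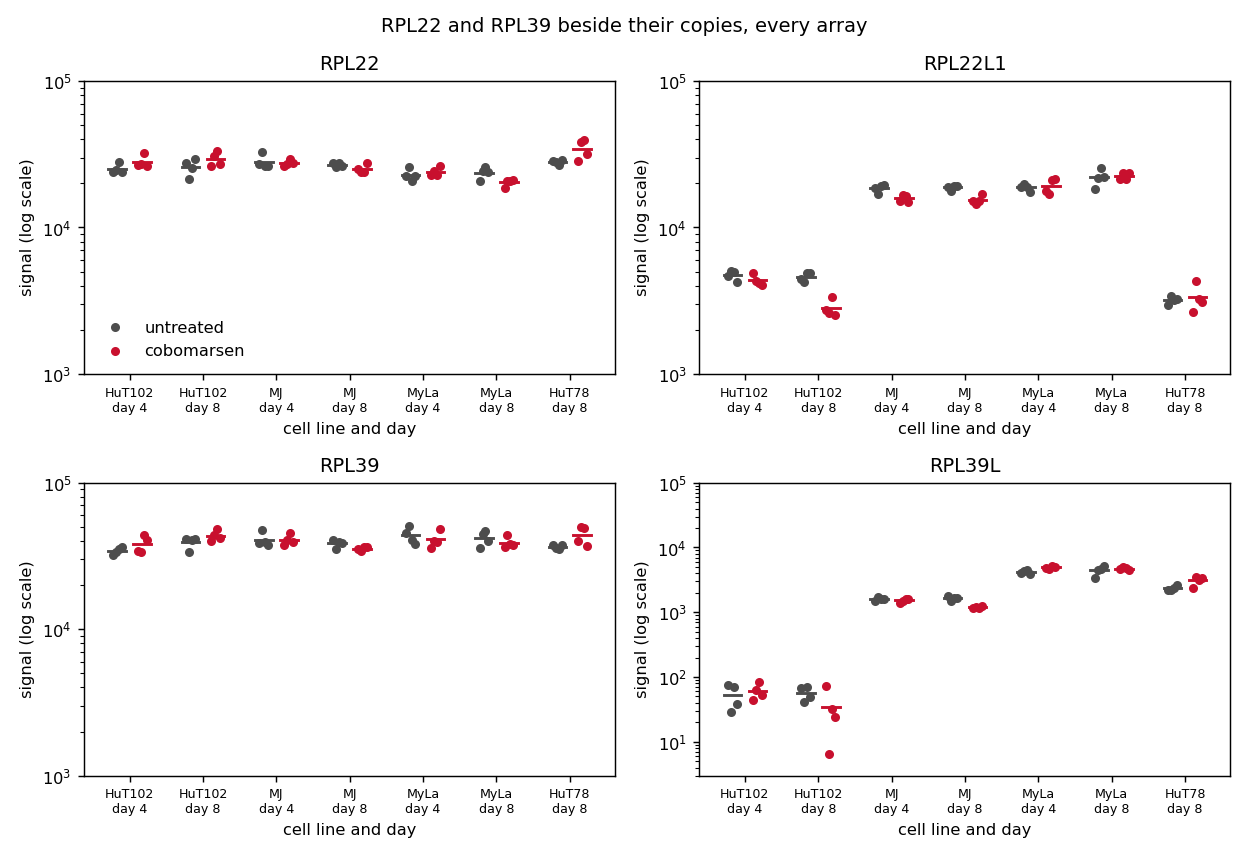
Signal on every array (log axis, points) with group means (bars) of RPL22 and RPL39 and of their copies RPL22L1 and RPL39L, by line and day. RPL22 and RPL39 hold their level over the lines, RPL22L1 is several-fold higher in MJ and MyLa than in HuT102 and HuT78, and RPL39L lies near background in HuT102 alone.

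In MyLa at day 4, 0 of 58 members were called in either direction by limma, and 2 were higher and 0 lower at an unadjusted p under 0.05. The background was 13.4% called higher and 12.9% lower, and the median member change was 0.039. Without treated array 1 there were 2 calls and without untreated array 2 there was 1. At day 8 6 of 57 members were called lower and 1 higher, against a background of 18.4% and 23.6%. RPL36 fell from 26634 ± 3043 to 21304 ± 1082 (-0.32 ± 0.075, limma adjusted p = 0.000519), with 23227, 26984, 30548 and 25779 against 20285, 21220, 20892 and 22820. No treated array reached the untreated ones. RPL35A, a Diamond-Blackfan anaemia gene, changed by -0.27 ± 0.09 (limma adjusted p = 0.0135) and RPL12, at the base of the stalk, by -0.24 ± 0.09 (limma adjusted p = 0.0324). RPL22, RPL31 and RPS9 were the other falls. The size depended on the probe set. For RPL22 the one used changed by -0.22 and others by -0.165, -0.195, -0.586 and -0.613. For RPL31 the one used changed by -0.239 and dimmer ones by -1.62 and -0.976. For RPS9 it was -0.209, with -0.32 on another and -0.0844 on one near background. RPL22 read 23734 ± 2195 and 20323 ± 1057 and RPL22L1 21964 ± 2905 and 22409 ± 1144, so that their signal ratio went from 0.923 (0.885 to 0.978) to 1.10 (1.04 to 1.14), without overlap. The call on RPL35A was lost without untreated array 3 and that on RPL12 when any 1 of 5 arrays, or the filter, was left out. The count of falls was 14 without untreated array 1, 1 without untreated array 3, and 2 without untreated array 2 or 4 or treated array 1 or 3.

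The rise in MyLa at day 8 was RPL7L1. Its signals were 6931, 7333, 7702 and 6786 untreated and 8080, 8599, 9345 and 8693 treated, without overlap, and the change was 0.27 ± 0.065 (limma adjusted p = 0.000541). All 49 strongly expressed members were negative in the same comparison, with a median of -0.11. RPL7L1 thus lay 0.38 above that median, in the direction opposite to MJ at day 4, where it lay 0.21 below. The day 8 effect on RPL7L1 differed between the 4 lines (limma F-test, adjusted p = 0.000851). In untreated MyLa wells RPL7L1 also rose from day 4 to day 8, by 0.25 ± 0.065 (limma adjusted p = 0.0063), from 6061 ± 692 to 7188 ± 414, and the untreated groups overlapped. RPL36A, read by its dim probe set, fell from 144 ± 39 to 51.1 ± 18 there, below the filter level at day 8 (limma adjusted p = 0.00563).

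Between the days the MyLa effect differed for 2 of 58 members, while 17.1% of 11004 genes were called. RPS25, a small-subunit protein used in some forms of internal initiation, read 29991 ± 2644 and 34731 ± 5680 without and with cobomarsen at day 4 and 32984 ± 3444 and 28497 ± 1183 at day 8. The difference of the effects was -0.41 ± 0.12 (limma adjusted p = 0.0161). RPL36AL differed by -0.34 ± 0.10 (limma adjusted p = 0.019). Neither was called after quantile normalization (-0.23 and -0.18) or with only the MyLa arrays in the fit. Without treated day 4 array 4, the highest in both, 0 members were called. Without treated day 4 array 1 or untreated day 4 array 2 there were 5 and without untreated day 8 array 1 there were 8. The treatment comparisons of a day and this difference use the same arrays.

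HuT78 had the most rises, 21 of 58 members and 0 falls, against a background of 10.6% called higher and 11.3% lower. The median change was 0.23 (all genes -0.048), and 48 of the 49 strongly expressed members were positive. Called were 13 of 29 in the large and 7 of 20 in the small subunit, and the copy RPL26L1. RPL14 changed by 0.34 ± 0.10 (limma adjusted p = 0.00969), from 24694, 22252, 21665 and 24201 to 24908, 32193, 34106 and 27150. RPL29 changed by 0.31 ± 0.09 (limma adjusted p = 0.012), from 36187, 35238, 34379 and 36376 to 36652, 48624, 53535 and 39605. In each, treated arrays 2 and 3 were far above the untreated range and treated array 1 was at its upper edge. RPL26L1 read 4009, 3796, 4047 and 4819 untreated and 4283, 6247, 5332 and 5458 treated (0.35 ± 0.086, limma adjusted p = 0.00343), with overlap.

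Most of the HuT78 calls rested on 2 arrays. Without treated array 2 there were 2 rises and without treated array 3 there was 1. With both left out, a choice made after seeing the data, 0 members were called by limma and the median change was 0.058. Without treated array 1 there were 41 rises, and without untreated array 1, 2 or 3 there were 12, 8 and 6. With only the HuT78 arrays in the fit 0 were called. At an unadjusted p under 0.05 limma gave 42 members higher and 0 lower with all arrays. RPL22L1 stood at 3187 ± 185 and 3338 ± 701 (0.046 ± 0.095, limma adjusted p = 0.791) and RPL7L1 at 12565 ± 391 and 12540 ± 1507 (-0.010 ± 0.065), 0.19 and 0.25 below the median change of the strongly expressed members.

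**Figure D4:**
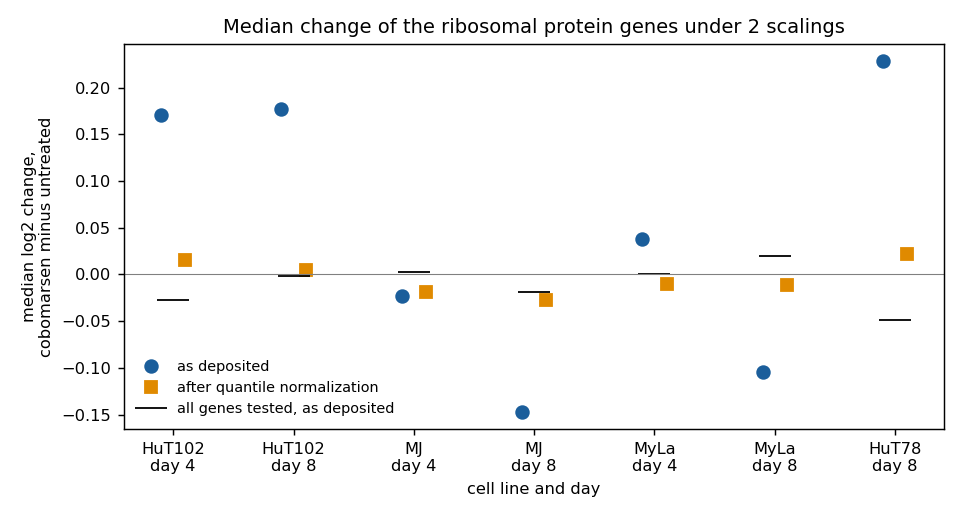
Median log2 change of the ribosomal protein genes in 7 treatment comparisons, with the deposited signals (circles) and after quantile normalization (squares); dashes give the median of all genes tested. With the deposited signals the medians run from -0.15 to 0.23, and after quantile normalization they lie between -0.027 and 0.022.

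The shift of the whole family depended on the scaling. Quantile normalization, which gives every array the same distribution, brought the median member change to 0.015 and 0.0047 in HuT102, -0.019 and -0.027 in MJ, -0.010 and -0.011 in MyLa (day 4 and day 8 each) and 0.022 in HuT78. The 49 strongly expressed members lay in the top 2% on every array, among 1094 probe sets. The method gives this top the same set of values on every array but does not fix the place of the members within it. Quantile normalization can thus reduce a change in their common level, by an amount that was not tested. After it, members called higher and lower were 3 and 0, then 2 and 1, in HuT102, 0 and 3 at both days in MJ, 1 and 6, then 1 and 7, in MyLa, and 3 and 1 in HuT78. The share of rises among all calls in HuT78 moved with it from 21 of 21 to 3 of 4. With the deposited scaling the common level and the scale of an array cannot be told apart, because the scale was set on other genes. A factor common to all signals of an array drops out of the change of a member relative to the rest. A shift that depends on brightness does not drop out for a dimmer member, and its size was not tested. RPL3, RPL23A and RPS29 in HuT102 at day 8 changed by 0.057, 0.069 and 0.066 after quantile normalization and were no longer called. RPL22L1 changed by -0.72 in HuT102 at day 8 and -0.24 in MJ at day 8 after quantile normalization (limma adjusted p = 2.64e-10 and 0.0174), and RPL7L1 by 0.33 in MyLa at day 8 (limma adjusted p = 0.000194).

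The day 8 effect differed between the 4 lines for 49 of 58 members (limma F-test), or 84.5%, against 64.8% of 11619 genes. The smallest adjusted p-values belonged to RPL22L1 (2.93e-06), RPL36 (4.01e-05), RPL3 (0.000344) and RPS9 (0.000527). The effects ranged over 0.77 in log2 for RPL22L1 and over 0.54 for RPL36. After quantile normalization 13 members were called. With HuT78 treated arrays 2 and 3 left out it was 34, and leaving out single arrays gave 43 to 53.

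Few members were called over time in untreated wells. From day 4 to day 8, 0 of 57 members were called by limma in HuT102 (9 higher and 1 lower at an unadjusted p under 0.05) and 0 of 57 in MJ (0 at that level). In MyLa it was 2 of 58, RPL36A and RPL7L1 as given above. The backgrounds were 8.72%, 1.68% and 13.1%. The median member change was 0.11 in HuT102, -0.054 in MJ and 0.012 in MyLa.

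The strongly expressed members spanned a narrow range of signal over the 4 lines. In untreated wells at day 8 the highest line mean was 1.16 times the lowest for the median gene, with a range from 1.06 to 1.51. MyLa was the highest line for 30 of the 49, and the lowest was HuT78 for 26 and HuT102 for 22. RPS12 had the widest range, with 29292 ± 1841 in HuT102, 38405 ± 4206 in MyLa, 40880 ± 2931 in MJ and 44368 ± 3004 in HuT78 (limma F-test, adjusted p = 4.65e-08). The arrays of MyLa, MJ and HuT78 overlapped, while all HuT102 arrays lay below them. Of 58 members 26 differed between the lines (44.8%), 18 of them among the 49 strongly expressed (36.7%), against 91.1% of 11627 genes. Signals at the top of an array's range can understate a difference, and whether they did so here was not tested. After quantile normalization it was 44. Sample numbers in the titles fall in 1 range for HuT102 and MJ and in another for HuT78 and MyLa. A difference between lines of different ranges cannot be told apart from any difference between the ranges, which does not touch a comparison of HuT102 with MJ or of HuT78 with MyLa.

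The copies RPL39L and RPL22L1 spanned wider ranges over the lines than RPL39 and RPL22. RPL39L read 57.1 ± 14 in untreated HuT102 at day 8, below the filter, 1653 ± 123 in MJ, 2371 ± 196 in HuT78 and 4444 ± 722 in MyLa (limma F-test, adjusted p = 1.86e-32). Neighbours in this order did not overlap. On the HuT102 arrays it ran from 6.58 to 83.0 over both days and treatments. RPL39 differed between the lines by a range of 0.18 in log2 (limma F-test, adjusted p = 0.351). RPL22L1 stood at 3187 ± 185 in HuT78, 4624 ± 341 in HuT102, 18781 ± 792 in MJ and 21964 ± 2905 in MyLa (limma F-test, adjusted p = 1.19e-34), where the last 2 overlapped. The gap between HuT102 and MJ, and that between HuT78 and MyLa, lies within a range of sample numbers. As a ratio of signals RPL22L1 to RPL22 was 0.114 in HuT78, 0.180 in HuT102, 0.702 in MJ and 0.923 in MyLa, a ratio of brightness and not of molecules.

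RPL7L1 was highest in HuT78, at 12565 ± 391, and lay between 7188 and 7632 in the other lines, where the MyLa arrays overlapped those of HuT102 and of MJ (limma F-test, adjusted p = 1.27e-17). RPL36AL ran from 8831 ± 360 in HuT102 through 10429 ± 515 in HuT78 and 13209 ± 360 in MJ to 14917 ± 1353 in MyLa (limma F-test, adjusted p = 1.83e-13), of which MJ and MyLa overlapped. RPL26L1 was lowest in MyLa at 3268 ± 287 and highest in MJ at 5324 ± 342 (limma F-test, adjusted p = 4.09e-09). RPL10L, dim everywhere, ranged from 129 ± 16 in HuT102 to 295 ± 29 in MJ (limma F-test, adjusted p = 0.00378). RPL3L had line means between 7.96 and 15.8 and was not tested. RPL36A ran from 51.1 ± 18 in MyLa to 193 ± 32 in HuT78 (limma F-test, adjusted p = 1.08e-06).

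**Figure D5:**
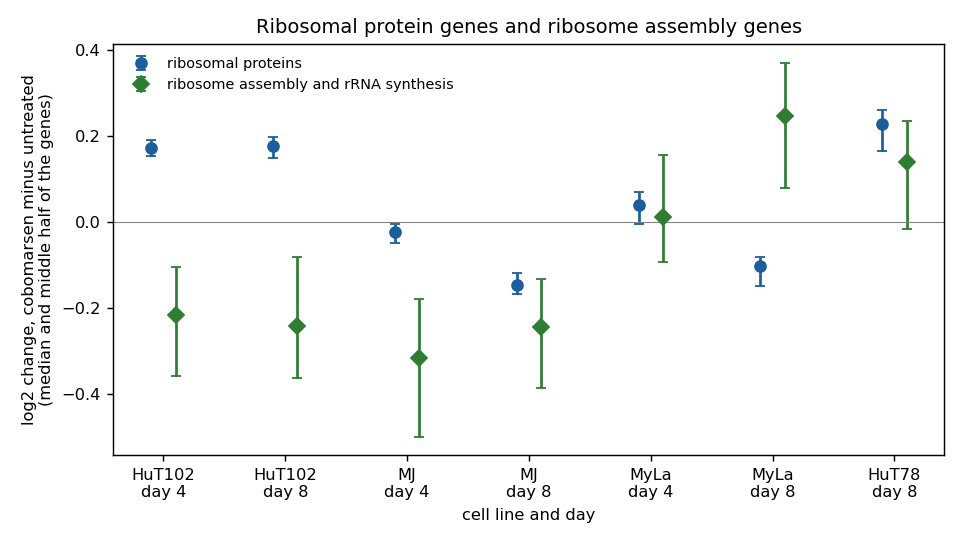
Median log2 change (points) and interquartile range of the genes (bars) for ribosomal protein genes and for genes of ribosome assembly and ribosomal RNA synthesis, in 7 treatment comparisons. The assembly genes lie below 0 in HuT102 and MJ and above 0 in MyLa at day 8 and HuT78, and the ribosomal proteins stand on the other side of 0 in HuT102 and in MyLa at day 8.

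Genes that build the ribosome had median changes below 0 in HuT102 and MJ and above 0 in MyLa and HuT78. Of 36 tested genes of ribosome assembly and ribosomal RNA synthesis, 0 were called higher and 14 lower in HuT102 at day 4 (median change -0.22) and 2 and 19 at day 8 (-0.24). In MJ it was 0 and 22 at day 4 (-0.32) and 2 and 18 at day 8 (-0.25). In MyLa 4 rose and 3 fell at day 4 (0.010), and 20 rose and 1 fell at day 8 (0.25). In HuT78 9 rose and 1 fell (0.14). Called lower were 38.9% and 52.8% of the list in HuT102 and 61.1% and 50% in MJ, against 13.1%, 21.3%, 14.3% and 18.7% of all genes. Called higher were 55.6% in MyLa at day 8 and 25% in HuT78, against 23.6% and 10.6%. In MyLa at day 4 the list, at 11.1% higher and 8.33% lower, lay near all genes, at 13.4% and 12.9%. Quantile normalization left medians of the same sign in HuT102 and MJ, with 0 to 2 called higher and 16 to 23 lower, and 16 higher and 1 lower in MyLa at day 8. This check is not given here for HuT78, whose treated arrays 2 and 3 stood apart in the member values.

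NOP14, of the processome that matures the small subunit, went from 4719 ± 200 to 2377 ± 127 in MJ at day 4 (-0.99 ± 0.075, limma adjusted p = 1.27e-15) and changed by -0.86 ± 0.075 at day 8. In HuT102 at day 8 it rose, from 2231 ± 167 to 3408 ± 349 (0.61 ± 0.075, limma adjusted p = 2.11e-09). LYAR, a nucleolar protein, fell by 0.70 ± 0.11 and 0.71 ± 0.11 in HuT102 at day 4 and day 8 and by 0.68 ± 0.11 and 0.64 ± 0.11 in MJ. HEATR1, needed for ribosomal RNA transcription, went from 2280 ± 207 to 1448 ± 32 in HuT102 at day 8 (-0.65 ± 0.10, limma adjusted p = 1.01e-06). NOLC1, a nucleolar chaperone, rose in MyLa at day 8 from 6622 ± 827 to 11184 ± 576 (0.76 ± 0.079, limma adjusted p = 1.71e-11).

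Messages that carry a TOP tract but code for other proteins, such as translation factors, were a list of 14 tested genes. Called higher and lower were 1 and 0 in HuT102 at day 4, 8 and 0 at day 8, 1 and 0 then 1 and 1 in MJ, 2 and 0 then 1 and 4 in MyLa, and 5 and 0 in HuT78. Over all genes 10.1%, 19.1%, 13.2%, 15.3%, 13.4%, 23.6% and 10.6% were called higher in the same order. The list stood above this in HuT102 at day 8 (57.1%) and HuT78 (35.7%), was close to it in MyLa at day 4 (14.3%) and stood below it in the others (7.14% each). Called lower were 28.6% in MyLa at day 8, against 18.4% of all genes, and 7.14% in MJ at day 8, against 18.7%. In the other comparisons 0% of the list was called lower, against 11.3% to 21.3% of all genes. Median changes were 0.12, 0.23, -0.011, -0.14, 0.019, -0.10 and 0.16 in the same order. In HuT102 at day 8 they included EIF4B, a helper of the cap-bound helicase, from 4110 ± 261 to 5957 ± 256 (0.54 ± 0.074, limma adjusted p = 3.66e-08), and EIF3L (0.46 ± 0.076, limma adjusted p = 1.91e-06). EIF4B changed the other way in MyLa at day 8 (-0.33 ± 0.074, limma adjusted p = 0.000313). HNRNPA1, an RNA-binding protein, rose in MJ and MyLa at both days, by 0.24 to 0.40, and in HuT102 at day 8, by 0.21. After quantile normalization the list gave 6 higher and 1 lower in HuT102 at day 8 and 1 higher and 2 lower in HuT78.

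Of 23 initiation factors tested, 1 rose and 2 fell in HuT102 at day 4, 4 and 6 at day 8, 0 and 6 then 2 and 8 in MJ, 3 and 1 then 6 and 3 in MyLa, and 6 and 1 in HuT78. In either direction this was 13.0% and 43.5% in HuT102, 26.1% and 43.5% in MJ, 17.4% and 39.1% in MyLa and 30.4% in HuT78, against 23.1%, 40.3%, 27.4%, 34.0%, 26.4%, 42% and 22.0% of all genes. Most of these shares are near or below the background, but they pool both directions. In MJ 26.1% were called lower at day 4 and 34.8% at day 8, against 14.3% and 18.7% of all genes. Called higher there were 0% and 8.7%, against 13.2% and 15.3%. In HuT78 26.1% were called higher and 4.35% lower, against 10.6% and 11.3%. EIF2S1 and EIF2S2, subunits of the factor that brings the initiator transfer RNA, changed in MJ at day 8 by -0.57 ± 0.083 and -0.55 ± 0.075 (limma adjusted p = 1.63e-07 and 4.00e-08). EIF3K rose in HuT102 by 0.55 ± 0.084 at day 4 and 0.76 ± 0.084 at day 8. Among regulators of ribosome genes in the mTORC1 and MYC pathways, 4 rose and 3 fell in HuT102 at day 4 and 8 and 5 at day 8, of 24 tested. In MJ it was 4 and 3, then 4 and 5, of 24, in MyLa 6 and 5, then 14 and 3, of 25, and in HuT78 0 and 6 of 24. In either direction the shares were 29.2% and 54.2%, 29.2% and 37.5%, 44.0% and 68.0%, and 25%. Those of MJ and HuT78 lay close to the shares of all genes in either direction given above. By direction MJ stayed close as well, while HuT78 had 0% higher and 25% lower, against 10.6% and 11.3% of all genes. The shares of HuT102 and MyLa in either direction lay above those of all genes. At day 4 these were 29.2% and 44.0%, against 23.1% and 26.4%. HuT102 at day 8 had 33.3% called higher and 20.8% lower, against 19.1% and 21.3% of all genes. MyLa at day 8 had 56% higher and 12% lower, against 23.6% and 18.4%. RHEB, the activator of mTORC1, rose in MJ at day 8 from 3820 ± 438 to 7709 ± 438 (1.02 ± 0.10, limma adjusted p = 1.68e-11) and in MyLa at day 4 (1.13 ± 0.10), and was called higher in the other comparisons of HuT102, MJ and MyLa, by 0.56 to 0.88. In HuT78 it was 9041 ± 1024 and 9023 ± 1141. RHEB is 1 gene of this list, in which changes ran both ways. At day 8 they ran from -1.07 to 1.31 in HuT102 and from -1.04 to 1.52 in MyLa. The largest called changes at day 8 belonged to RRAGD and MXI1 in HuT102 and to DEPTOR and TSC2 in MyLa. The strongly expressed members had a median change of -0.15 in MJ at day 8 and 0.036 in MyLa at day 4. Whether RHEB and the levels of the members are linked was not tested.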

How the data were processed

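Total RNA from the 4 lines was hybridized to Affymetrix arrays, 1 for each of 56 samples. MAS5, named in the submitters' processing notes, gave the deposited intensity values, which are linear and not logarithms. Their precision is limited by the number of arrays and, for dim genes, by background. Groups came from the labels. Probe sets were named from GEO's platform annotation: 41091 had 1 symbol, 1801 several and 11721 none, and 62 were controls. The brightest single-symbol probe set stood for a gene. Group means of log2(signal + 16) were fitted with limma 3.58.1 (R 4.3.3) in 1 model over all arrays (42 residual degrees of freedom, eBayes with an intensity trend), two-sided, and p-values were adjusted by Benjamini-Hochberg across those genes whose mean over the compared arrays reached log2 6.49. The steps were tested on simulated data for MJ at day 8, with noise independent between genes. That test does not cover the movement shared by the strongly expressed members or changes as small as theirs. Python 3.11.15, NumPy 2.4.6, pandas 2.3.3 and Matplotlib 3.10.9 were used for tables and drawing.

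The members and the 4 context lists were chosen with earlier results of these data known, and adjusted p-values over all genes are no independent support for them. The context lists held 42 genes of ribosome assembly (36 with a probe set), 20 TOP messages (15), 25 initiation factors (24) and 26 regulators (25). Named changes were, per treatment comparison, up to 3 called members in each direction, the called members with the widest line range or the smallest F-test p, the copies with the genes they resemble, and up to 2 called genes per context list, of which not all are named. For a gene so named, further comparisons are given as values. Remaining called members are listed by name. Alternatives were log2(signal + 1) and log2(signal + 64), quantile normalization, dropping the filter or raising it to the 75th percentile, the arrays of 1 line alone, no intensity trend, the mean of all probe sets, replacing probe sets ending in _x_at by another of the gene, and leaving out each array in turn. For 8 members with no other kind of probe set (RPL3, RPL7L1, RPL12, RPL23A, RPL29, RPS4X, RPS10 and RPS12) the _x_at probe set was kept, so that this alternative tests nothing for them.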

Additional observations from a re-analysis of the deposited data

Results flagged for a closer look

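Within groups of 4 arrays, 8 quantities were looked at in each of 14 groups for an array far from the other 3, and chance alone marks about 1 in 20. The median of the 49 strongly expressed members had a high array in untreated MJ at day 4 (43846), in treated MJ at day 4 (41087) and in treated MyLa at day 8 (38079). In untreated MJ at day 4 the same array was the highest for RPL22 (32658) and RPS12 (45706), and in the treated group RPS12 had 44300 on its highest array. RPL22 also had a high array in treated HuT102 at day 4 (32001) and a low one in treated MyLa at day 8 (18739), where RPS29 had a high one (39197). Among the copies, RPL26L1 had a low array in untreated MJ at day 4 (4957). RPL7L1 had low arrays in treated MJ at day 4 (6025) and untreated MJ at day 8 (7125) and a high one in untreated MyLa at day 4 (7089).

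The effect of cobomarsen differed between day 8 and day 4 for RPL22L1 in HuT102 (-0.60) and for RPS25 (-0.41) and RPL36AL (-0.34) in MyLa, by the limma test of the difference. The day 8 effect differed between the 4 lines for 49 of 58 members (84.5%), against 64.8% of 11619 genes, and this count depended on the scaling, as given above.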

How the results depend on the processing

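Counts of called members and small medians depended on single arrays and on the scaling. Without 1 array, the median change kept its sign in HuT102 (0.10 to 0.22 at day 4, 0.13 to 0.22 at day 8), in MJ and MyLa at day 8 (-0.18 to -0.12 and -0.17 to -0.060) and in HuT78 (0.17 to 0.29). It turned sign in MJ and MyLa at day 4 (-0.063 to 0.034 and -0.017 to 0.099), for the day difference in HuT102 (-0.050 to 0.078) and over time in untreated MJ (-0.074 to 0.0075) and MyLa (-0.037 to 0.075). Without 1 array, members called higher ranged from 0 to 7 in HuT102 at day 4, from 1 to 21 at day 8, from 0 to 2 in MyLa at day 4 and from 1 to 41 in HuT78. Members called lower ranged from 1 to 2 in MJ at day 4, from 1 to 2 at day 8 and from 1 to 14 in MyLa at day 8, and the day difference in MyLa from 0 to 8. Quantile normalization gave median changes of 0.015 and 0.0047 in HuT102, -0.027 in MJ at day 8, 0.022 in HuT78, and 0.0041 and -0.024 for the day difference in MJ and MyLa, and turned the sign in MyLa at day 4 (-0.010) and for the day difference in MJ and in HuT102 (-0.0059). It gave 2 rises in HuT102 at day 8, 3 falls in MJ at day 4 and 3 at day 8, 1 rise and 6 falls in MyLa at day 4, 3 rises and 1 fall in HuT78, 5 and 1 calls over time in untreated HuT102 and MyLa, 44 between lines and 13 for the effect between lines. With the arrays of 1 line alone there was 1 fall in HuT102 at day 4, 6 rises at day 8, 3 falls in MJ at day 4, 11 at day 8, 0 rises in HuT78, and 1 and 0 calls for the day difference in MJ and MyLa. The mean of all probe sets gave 0 rises in HuT102 at day 4, 16 rises and 2 falls at day 8, 1 rise and 2 falls in MJ at day 4, 1 and 3 at day 8, 1 and 2 in MyLa at day 4, 8 rises in HuT78, 2 and 6 calls for the day difference in HuT102 and MyLa, and 2 and 5 over time in untreated HuT102 and MyLa. No filter gave 6 rises and 2 falls in HuT102 at day 8, 3 falls in MyLa at day 8 and 9 rises in HuT78. The filter at the 75th percentile gave 4 rises in HuT102 at day 4, 2 falls in MJ at day 4 and 1 call over time in untreated MyLa. log2(signal + 64) gave 2 falls in MJ at day 8, no intensity trend 11 rises in HuT78, and replacing _x_at probe sets, where a gene has another, 4 calls for the day difference in MyLa. HuT78 without treated arrays 2 and 3, added after seeing the data, had 0 rises and a median of 0.058. EIF3H in MJ at day 8 changed sign to 0.17 with the mean of all probe sets (-0.33 with the brightest). Of 84 named changes, 46 were called with the same sign under every alternative run. The causes were not tested. No paired analysis was run because the labels give no replicate numbers shared between groups. Title numbers alternate between untreated and treated samples in HuT102, MJ and HuT78 but not in MyLa. What neighbouring numbers share is not stated.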
